A study of Mus musculus with 6 samples.

Results

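Ephrins and Eph receptors were followed in mouse embryonic stem cells of the CGR8 line that had been left to differentiate in embryoid bodies, floating clusters of cells that set up the germ layers, and then sorted by flow cytometry on day 5. The members are 10 genes, 4 of them ephrins (Efna1, Efna5, Efnb1 and Efnb2) and 6 of them receptors (Epha2, Epha4, Epha7, Ephb2, Ephb3 and Ephb4), chosen by name and looked up in the authors' deposited comparison table. Of these 10 genes, 9 were found there, with 16 probe sets, among 12265 named genes in all and 45101 probe sets in the value table. No probe set of that table carried the name Ephb4 or an older synonym of it, so Ephb4 was not analysed here. The first group carried both CXCR4 and FLK-1 at the cell surface (double positive) and the second carried neither (double negative), with 3 independently collected samples each and 1 Affymetrix mouse array per sample. All 6 samples came from the same line and the same day of differentiation. CGR8 is 1 cell line, and the series text speaks of RNA pools without saying what was pooled, so the p-values cover only the spread among these 6 samples.

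Eph receptors are the largest family of receptor tyrosine kinases, and their ligands, the ephrins, are bound to the membrane of the neighbouring cell. A-type ephrins are held by a lipid anchor, whereas B-type ephrins cross the membrane, so contact can signal forward into the receptor cell and in reverse into the ephrin cell. The outcome is often repulsion or the sorting of cells at a boundary. In the embryo the system takes part in somite and hindbrain segmentation, and ephrin-B2 and its receptor EphB4 mark arteries and veins.

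Each deposited value is a ratio to the median of the 3 double-negative arrays for that probe set, so it compares arrays and gives no level of one gene against another. Differences are log2 values, double positive minus double negative, tested with limma over all 12265 genes, and each gene is represented by 1 probe set. A gene was called at a Benjamini-Hochberg adjusted p under 0.05. In bulk samples of this kind, fewer cells that make a transcript and less of it per cell cannot be told apart.

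The transcripts of the sorted proteins followed the labels, with Cxcr4 higher by 2.47 (SE 0.415) and Kdr, which encodes FLK-1, by 2.62 (SE 0.655) in double-positive cells. Both were higher in 3 of 3 replicate pairs, but neither passed the adjustment over all genes (limma adjusted p = 0.22 and 0.524). Both replicate 1 arrays stood apart from the other 4. Their median log2 ratios over all named genes were -0.40 in double-positive replicate 1 and -0.42 in double-negative replicate 1, and lay between 0 and 0.12 on the other arrays. The log2 ratio of the 5' to the 3' control probe sets is a measure of RNA integrity. Here both values were already divided by their double-negative medians, so it compares arrays and does not show that any RNA was intact. For Gapdh it was -0.66 in double-positive replicate 1 and -2.21 in double-negative replicate 1, against -0.07 to 0.07 elsewhere. For Actb it was -0.36 and -1.85 on these arrays, against -0.02 to 0.17 elsewhere.

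Efnb2 had the largest difference of the 9 genes, and the ephrin-B genes are shown first with the sequence before their transcription starts. The 250 bases upstream of the start were taken from RefSeq (GRCm38.p6), where all 10 genes had an entry. The Efnb2 stretch lies at chr8:8661243-8661492 on the minus strand and the Efnb1 stretch at chrX:99135811-99136060 on the plus strand, and both are written 5' to 3'. Capitals mark the letters of 5 motifs, searched on either strand.
Efnb2: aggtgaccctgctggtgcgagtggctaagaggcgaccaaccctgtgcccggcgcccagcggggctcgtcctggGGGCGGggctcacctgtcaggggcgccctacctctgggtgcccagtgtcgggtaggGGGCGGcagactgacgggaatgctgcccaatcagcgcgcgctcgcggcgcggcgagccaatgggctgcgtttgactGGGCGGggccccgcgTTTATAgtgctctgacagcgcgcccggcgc
Efnb1: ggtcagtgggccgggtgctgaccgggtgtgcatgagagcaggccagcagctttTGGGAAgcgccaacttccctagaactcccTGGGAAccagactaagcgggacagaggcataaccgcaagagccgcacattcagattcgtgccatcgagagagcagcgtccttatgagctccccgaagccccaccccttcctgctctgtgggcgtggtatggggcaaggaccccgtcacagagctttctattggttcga
The Efnb2 stretch held 3 GC boxes, whose first bases lay 177, 121 and 45 bases before the start, and 1 TATA box on the opposite strand, whose first base lay 30 bases before it. The Efnb1 stretch held neither of these and had 2 RBPJ cores, 197 and 168 bases before the start. The marked motifs did not overlap one another. The Efnb2 stretch contained 27 CpG dinucleotides and the Efnb1 stretch 13, beside a median of 6 over all 32851 promoters in the table. The GC box was searched as GGGCGG and was present in 32.7% of those promoters. The TATA box was searched as TATAAA, found in 12.4% of them. The core of sites for RBPJ, the factor through which Notch receptors act, was searched as TGGGAA and found in 21.6%. The core of ETS factor sites, searched as CCGGAA, was found in 12% of all promoters and in neither of the stretches shown. The GATA factor core, searched as AGATAA, was found in 9.99% of all promoters and likewise in neither stretch. These matches describe the letters in this window and were not tested for binding.

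Among the ligands, Efnb2, a transmembrane ephrin known from arterial endothelium and needed for early vessel development, was higher in double-positive cells. Its first probe set had ratios of 1.664, 3.084 and 1.726 in the double-positive samples, listed by replicate number here and throughout, against 0.8, 1.058 and 1 in the double-negative samples. All 3 double-positive values lay above all 3 double-negative ones, with double-positive replicate 2 the highest of the 6. The mean was 2.19-fold higher, with a 95% interval of 1.23 to 3.88, and the log2 difference was 1.13 (SE 0.362, n = 3 and 3). The limma moderated test gave an unadjusted p of 0.0133 and an adjusted p of 0.713, so Efnb2 did not pass. Of all 12265 genes, 1.58% had a higher log2 difference and 1.85% had a smaller p.

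The second Efnb2 probe set gave nearly the same mean difference with more spread. It stood at 1.517, 4.84 and 2.384 in double-positive replicates, against 1, 2.006 and 0.841 in double-negative replicates. Double-negative replicate 2 lay above double-positive replicate 1, so here the groups overlapped. The log2 difference was 1.12 (SE 0.569 in the limma fit over all 45037 probe sets that are not controls, unadjusted p = 0.0877 and adjusted p = 0.964). On both probe sets the double-positive value was above the double-negative one of the same replicate number in each of the 3 pairs. In the authors' deposited table the folds of these probe sets are 2.187 and 2.182, with p-values of 0.0434 and 0.147. That table gives a p-value under 0.05 to 3.33% of its probe sets, and this first probe set was 1 of 16 for the members to do so.

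The Efnb2 difference stayed on the higher side when arrays were left out. It was 1.17 without both replicate 1 arrays (limma adjusted p = 0.341). Leaving out each array in turn gave 0.84 to 1.29, with the lowest value without double-positive replicate 2. In that fit the limma unadjusted p was 0.0683, and it was between 0.0119 and 0.032 in the other 5 fits. Markers of other cell types moved with the groups as well. Leaving aside Kdr, on whose product the cells were sorted, 3 of 4 measured early endothelial and haemangioblast markers (Etv2, Tal1 and Tek, but not Cdh5) had all 3 double-positive values above the double-negative ones, as did 5.14% of all genes. The median log2 ratio of these 4 genes was 0.85 to 1 on double-positive arrays and -0.29 to 0.18 on double-negative arrays. Of 5 cardiac mesoderm markers 4 had a higher mean, beside 54.5% of all genes, and Isl1 had a lower one. Only 1 of the 5, Hand2, had all 3 double-positive values above the double-negative ones. The list's median was 0.29 to 1.52 against -0.48 to 0.34. The part of these cells in the Efnb2 difference was not tested.

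**Figure D1:**
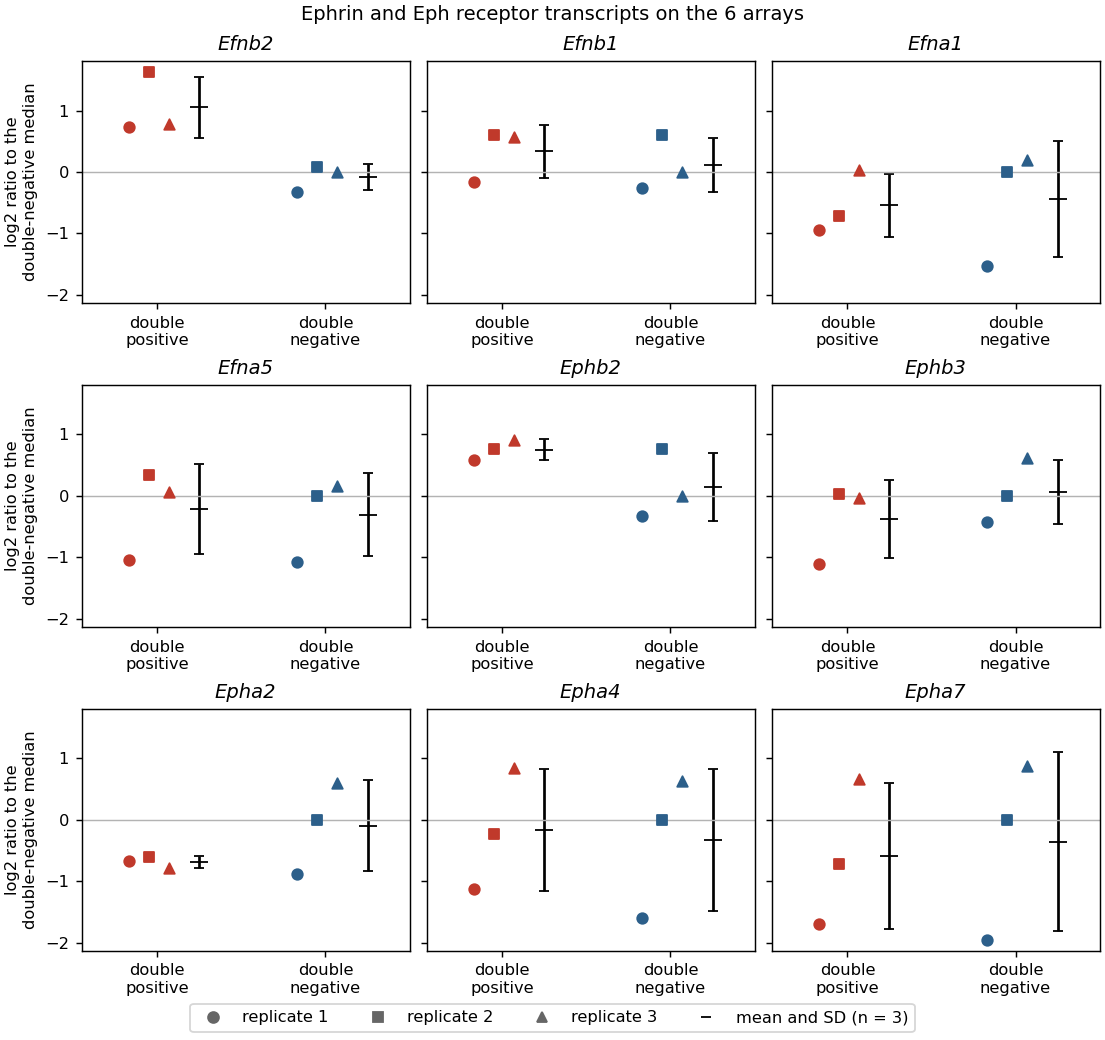
Log2 ratios of the 9 measured ephrin and Eph receptor genes on each array, relative to the double-negative median, with double-positive samples left and double-negative samples right in every panel. Marker shapes stand for replicate numbers and bars for the mean and SD of 3 arrays. Efnb2 is the gene whose groups do not overlap, and replicate 1 is the lowest array of both groups in 8 of the 9 panels.

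Efnb1, the X-linked ephrin-B gene linked to craniofacial development, differed little. It stood at 0.894, 1.517 and 1.486 in double-positive replicates, against 0.834, 1.514 and 1 in double-negative replicates. Replicate 1 was the lowest array of both groups, and the replicate 2 values were almost equal. The ratio of means was 1.17-fold (log2 difference 0.22, SE 0.381, 95% interval of the ratio 0.64 to 2.13, limma adjusted p = 1). Its other probe sets gave log2 differences of 0.40 (SE 0.43) and 0.49 (SE 0.436), also on the higher side, and neither passed.

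The A-type ephrins showed no difference beyond their spread. Efna1, a ligand of Epha2 first found as a gene induced by an inflammatory cytokine in human endothelial cells, stood at 0.517, 0.609 and 1.023 in double-positive replicates, against 0.346, 1 and 1.15 in double-negative replicates. Its log2 difference was -0.10 (SE 0.517, limma adjusted p = 1), and it was -0.44 without both replicate 1 arrays. Efna5, a ligand known from the guidance of retinal axons, stood at 0.483, 1.261 and 1.039, against 0.472, 1 and 1.12. Replicate 1 was clearly the lowest array in both groups, and the Efna5 log2 difference was 0.09 (SE 0.491, limma adjusted p = 1). The 95% confidence intervals of the ratio ran from 0.411 to 2.11 for Efna1 and from 0.488 to 2.31 for Efna5. With 3 arrays per group, neither interval excluded a 2-fold difference in either direction.

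Among the receptors, Ephb2 came closest to the pattern of Efnb2. Ephb2 is a receptor for B-type ephrins that also binds ephrin-A5. Its first probe set stood at 1.49, 1.687 and 1.884 in double-positive replicates, against 0.8, 1.688 and 1 in double-negative replicates. Double-negative replicate 2 reached the double-positive range, and the other double-negative arrays lay below it. The difference was 1.52-fold (log2 difference 0.60, SE 0.371, 95% interval of the ratio 0.845 to 2.73, limma unadjusted p = 0.14 and adjusted p = 1). The second Ephb2 probe set gave 1.145, 1.462 and 1.451 against 1, 1.25 and 0.868, a log2 difference of 0.39 (SE 0.359, limma unadjusted p = 0.316). Leaving out each array in turn put the first probe set between 0.37 (without double-negative replicate 1) and 0.91 (without double-negative replicate 2), and it was at 0.46 without both replicate 1 arrays. Double-negative replicate 2 also had the highest Cxcr4 and Kdr ratios of the double-negative group, 1.954 and 3.929, beside 0.75 to 1 on the other double-negative arrays.

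Ephb3, another receptor of B-type ephrins known from the intestinal crypt, had a lower mean in double-positive cells. It stood at 0.462, 1.017 and 0.973 in double-positive replicates, against 0.746, 1 and 1.525 in double-negative replicates. The groups overlapped, and the log2 difference was -0.44 (SE 0.438, limma adjusted p = 1). Leaving out double-positive replicate 1 put Ephb3 at -0.07, and leaving out double-negative replicate 3 put it at -0.17. It reached -0.68 when double-negative replicate 1 was left out, and was -0.31 when both replicate 1 arrays were. Ephb3 had 1 probe set, with a flag score of 4, where the score runs from 2 to 6 and is taken to count the arrays that detected it.

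Epha2, a receptor of epithelial and early embryonic cells, had the most even double-positive values of all 9 genes and uneven double-negative ones. It stood at 0.63, 0.655 and 0.577 in double-positive replicates, against 0.54, 1 and 1.505 in double-negative replicates. Double-negative replicate 1 lay below the double-positive range and the other double-negative arrays lay above it. The log2 difference was -0.59 (SE 0.416, limma unadjusted p = 0.192 and adjusted p = 1). Without both replicate 1 arrays it was -0.997 (limma unadjusted p = 0.0147, adjusted p = 0.338), and it was -0.98 without double-negative replicate 1 alone and -0.25 without double-negative replicate 3. The Epha2 probe set had a flag score of 2, the lowest in the table. If the score counts arrays with detection, most of these values, even or uneven, came from arrays that did not detect it. Which arrays those were is not known.

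The neural guidance receptors Epha4 and Epha7 varied more between replicates than between groups. Epha4, which binds ephrins of both types, stood at 0.455, 0.85 and 1.794 in double-positive replicates, against 0.328, 1 and 1.544 in double-negative replicates. Epha7 stood at 0.307, 0.609 and 1.578 in double-positive replicates, against 0.258, 1 and 1.837 in double-negative replicates. On these probe sets, which represent the genes, replicate 1 was lowest and replicate 3 highest in both groups. On the other probe sets of both genes replicate 1 was also lowest in both groups. Replicate 2 was there the highest double-negative array (1.007 and 1.191 for Epha4 and 1.093 for Epha7, each beside 1 in replicate 3). Markers of paraxial mesoderm, where 2 of 3 were measured, had the order of the representing probe sets. Their median log2 ratios were -0.76, -0.30 and 0.37 in the double-positive samples and -0.64, 0 and 1.27 in the double-negative samples. Epithelial markers had this order too, with medians of -1.71, -1.69 and -0.79 against -0.72, 0 and 0.50. The order was not particular to 1 marker list, and the part of such cells was not tested. The log2 differences were 0.15 (SE 0.669) for Epha4 and -0.23 (SE 0.798) for Epha7, each with a limma adjusted p of 1. Without both replicate 1 arrays Epha7 was at -0.47. These genes had the largest spread within groups, a pooled SD of 1.07 for Epha4 and 1.32 for Epha7 on the log2 scale, beside a median of 0.506 over all genes. The other Epha4 probe sets gave -0.09 and -0.37 and the other Epha7 probe set -0.03. Epha4 was the 1 gene of the 5 with several probe sets whose probe sets did not all point the same way.

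**Figure D2:**
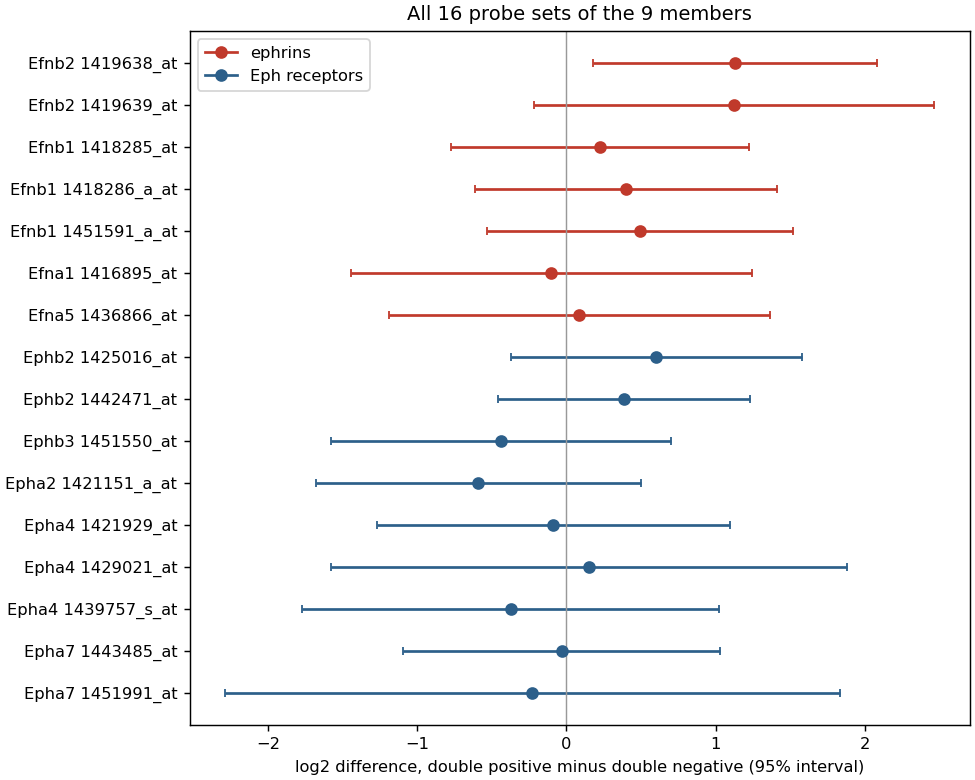
Log2 difference, double positive minus double negative, of each of the 16 member probe sets, with 95% confidence intervals from the limma fit over all probe sets. Ephrins are drawn above Eph receptors. The interval of the first Efnb2 probe set is the 1 that does not reach 0.

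Taking the 9 measured genes as a group, 0 passed the adjusted threshold in the limma test, as did 0% of all genes. At an unadjusted p under 0.05 there was 1 gene, Efnb2, beside 5.14% of all genes. Groups that did not overlap were also found in 1 of 9, Efnb2, beside 10.4% of all genes. Of the 9 genes, 5 had a higher and 4 a lower mean, beside 54.5% of all genes with a higher mean. The median log2 difference was 0.09 for the 9 genes and 0.04 for all genes, and the median absolute log2 difference was 0.23 and 0.28. Of the 16 probe sets 9 had a higher mean and 7 a lower one, beside 53.6% of all probe sets with a higher mean. The double-positive value was above its double-negative counterpart in 3 of 3 replicate pairs for 2 of the 9 genes, Efnb1 and Efnb2, beside 23.3% of all genes. For all 9 genes the 95% confidence interval reached past 2-fold in at least 1 direction.

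The replicate 1 arrays of both groups were low together in most of these genes. The order of replicates 2 and 3 was not always shared: Ephb2 was highest in double-positive replicate 3 (1.884) and double-negative replicate 2 (1.688). Replicate 1 was the lowest array in both groups for 8 of the 9 genes, Epha2 being the exception, beside 54.1% of all genes. The median log2 ratio of the 9 genes was -0.95, 0.02 and 0.57 in the double-positive samples, against -0.89, 0 and 0.20 in the double-negative samples. The median over all genes on the replicate 1 arrays was -0.40 and -0.42. The part of RNA integrity in these values was not tested.

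**Figure D3:**
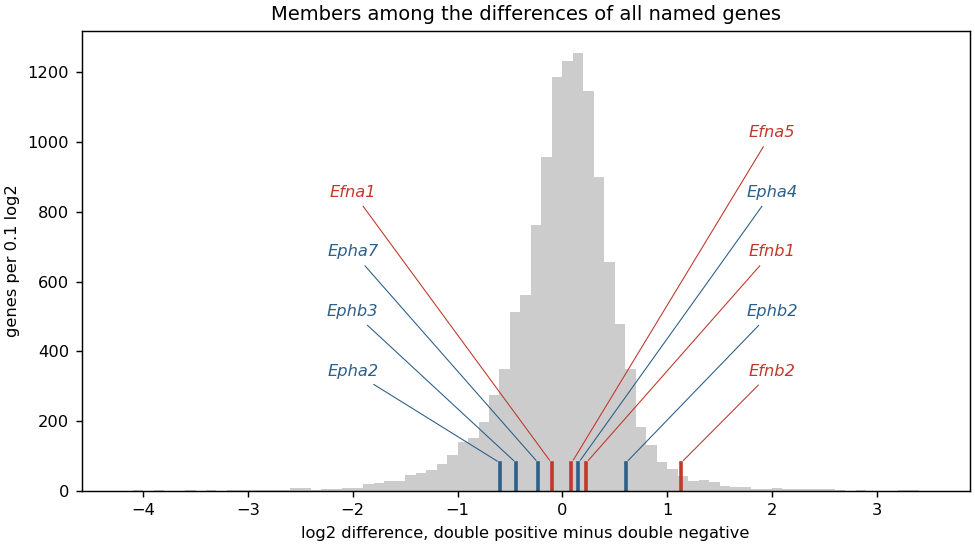
Distribution of the log2 difference, double positive minus double negative, over all 12265 named genes in bins of 0.1 (bars), with the 9 measured ephrins (red) and Eph receptors (blue) marked. Efnb2 lies at 1.13, and the other 8 genes lie between -0.59 and 0.60.

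Other genes of the pathway were taken from 4 lists, which held 46 genes, of which 36 were measured. None of the 36 passed the adjusted threshold in the limma test, and 1 had an unadjusted p under 0.05, beside 5.14% of all genes. Among the other Eph receptors, 4 of 8 were measured and 3 of these had a higher mean. Epha1, a receptor known from epithelia, stood at 0.159, 0.293 and 0.641 in double-positive replicates, against 0.269, 1 and 1.755 in double-negative replicates. It was lower in 3 of 3 pairs although the groups overlapped (log2 difference -1.33, SE 0.74, limma unadjusted p = 0.108 and adjusted p = 1). With the replicate numbers taken as pairs, limma gave Epha1 an unadjusted p of 0.00338 and an adjusted p of 0.164. The same fit gave Efnb2 0.00394 and 0.168. Epha1 had 1 probe set, with a flag score of 3, beside 6 for the Efnb2 probe set used here. Without both replicate 1 arrays the Epha1 difference was -1.61, and leaving out each array in turn gave -2.09 (without double-negative replicate 1) to -0.74 (without double-negative replicate 3). Epha5, a receptor of A-type ephrins in the brain, was at 0.82 (SE 0.503), and rested on double-positive replicate 1, whose ratio was 3.305 beside 0.992 and 1.146 in the other double-positive replicates. Without both replicate 1 arrays Epha5 was at 0.04.

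Of the other ephrins, 3 of 4 were measured, and 2 of these had a higher mean. Efna3 stood at 1.636, 1.211 and 1.788 in double-positive replicates, against 0.5, 1 and 1.274 in double-negative replicates. Only double-positive replicate 2 fell within the double-negative range (log2 difference 0.83, SE 0.419, limma unadjusted p = 0.0824 and adjusted p = 1). A second Efna3 probe set gave 0.41 (SE 0.464, limma unadjusted p = 0.411), with double-positive replicate 1 within the double-negative range. For the first probe set, leaving out each array in turn gave 0.43 (without double-negative replicate 1) to 1.11 (without double-negative replicate 3). It was at 0.38 without both replicate 1 arrays. Efna2 was at 0.63 (SE 0.822), and at -0.27 without double-negative replicate 1.

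Downstream of the receptors, 19 of 22 exchange factors, adaptors and kinases were measured, 9 with a higher and 10 with a lower mean. Arhgef16, an exchange factor of the ephexin family known to bind EPHA2 in human cells, had the largest difference of all 36 genes. It stood at 0.101, 0.171 and 0.256 in double-positive replicates, against 1, 0.83 and 1.187 in double-negative replicates. Every double-positive value lay below every double-negative one, a 6.06-fold lower mean (log2 difference -2.60, SE 0.408, limma unadjusted p = 0.000167 and adjusted p = 0.21). Its probe set had a flag score of 2, so the limit given for Epha2 holds here as well. With a pseudocount of 1 added to the ratios, which shrinks low values most, the Arhgef16 difference was -0.77. Epithelial markers moved the same way: 4 of 4 had a lower mean, and their median log2 ratio was -1.71 to -0.79 on double-positive arrays and -0.72 to 0.50 on double-negative arrays. Pluripotency markers did so too, with 4 of 4 lower and medians of -1.76 to -1.07 against -0.49 to 0.35. The part of these cells in the values of Epha1 and Arhgef16 was not tested.

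Vav3, an exchange factor recruited to activated Eph receptors, lay on the other side. It stood at 2.122, 1.914 and 1.954 in double-positive replicates, against 1, 1.84 and 0.511 in double-negative replicates. The groups did not overlap, by a narrow margin over double-negative replicate 2 (log2 difference 1.03, SE 0.469, limma unadjusted p = 0.0584 and adjusted p = 1). Leaving out each array in turn gave 0.56 (without double-negative replicate 3) to 1.48 (without double-negative replicate 2). Acp1, a low molecular weight phosphatase that binds Eph receptors, was the third gene of this list without overlap, at 0.27 (SE 0.3, limma adjusted p = 1).

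Of the genes of reverse signalling and ephrin shedding, 10 of 12 were measured, 7 with a higher and 3 with a lower mean. Grip1, an adaptor that binds the tail of B-type ephrins, stood at 0.395, 0.705 and 0.853 in double-positive replicates, against 1, 1.123 and 0.935 in double-negative replicates. Its groups did not overlap, and it did not pass (log2 difference -0.71, SE 0.375, limma unadjusted p = 0.0907 and adjusted p = 1). Grip1 was at -0.39 without double-positive replicate 1 and at -0.40 without both replicate 1 arrays. Stat3, a transcription factor recruited by ephrin-B1, was at 0.63 (SE 0.417, limma adjusted p = 1), and between 0.27 (without double-negative replicate 1) and 0.94 (without double-negative replicate 2) with each array left out in turn. Over the 4 lists, 4 of 36 genes had groups without overlap, beside 10.4% of all genes.

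**Figure D4:**
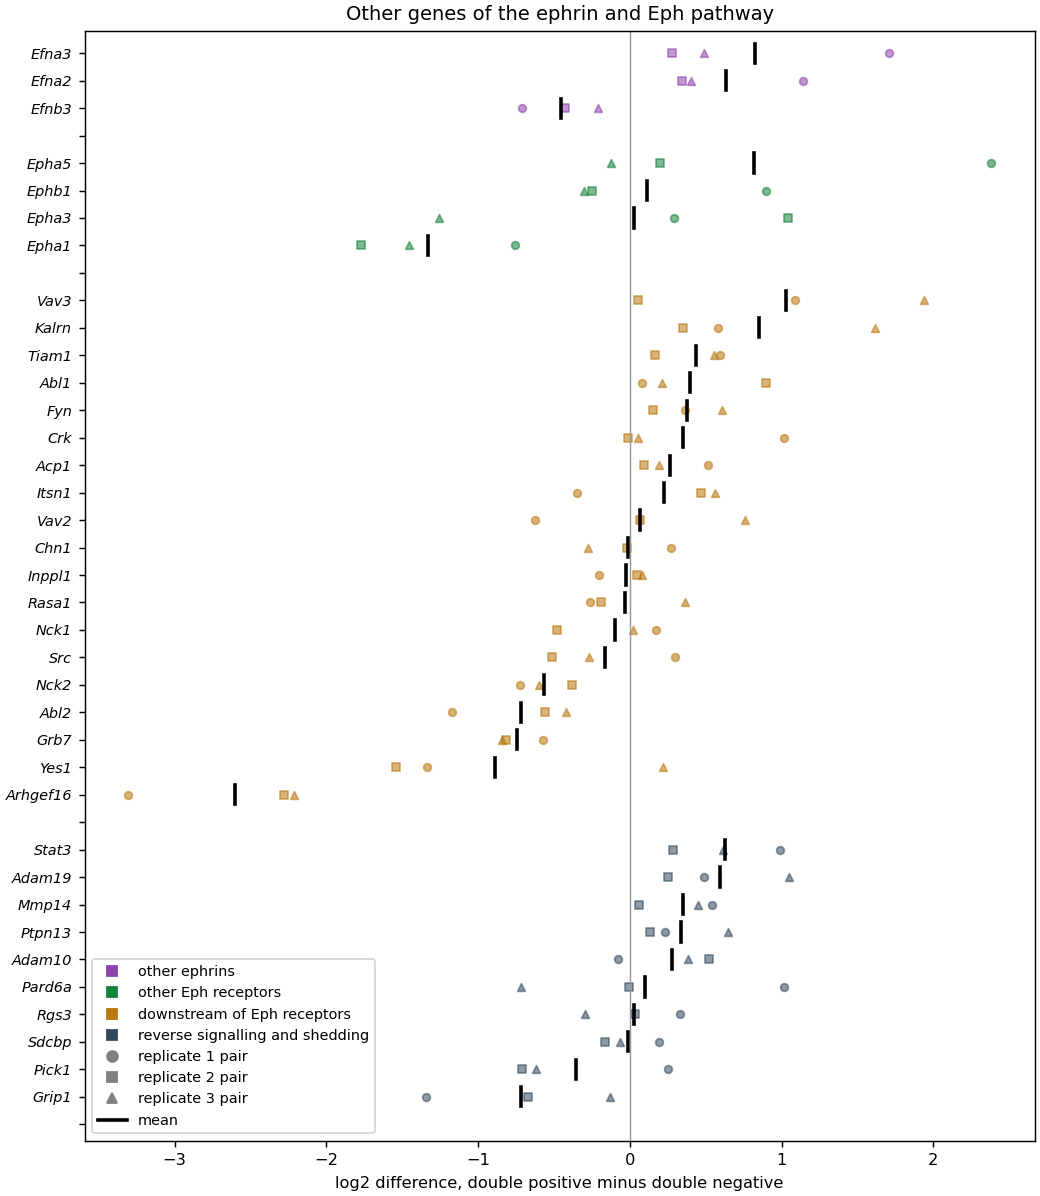
Log2 difference, double positive minus double negative, of 36 further genes of the ephrin and Eph pathway in 4 lists. Each symbol is the difference within 1 replicate number and the black bar is the mean. Arhgef16 at -2.60 and Epha1 at -1.33 are the lowest and Vav3 at 1.03 is the highest.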

How the data were processed

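The 6 samples were grouped by their titles. Per the labels' protocols, total RNA (6 ug) was converted to biotinylated cRNA. The deposited values are linear ratios: the authors divided each probe set by the median of the double-negative arrays, which is 1 for 100% of probe sets. How probes were summarised, corrected for background and scaled is not given in the sources used here, and the ratios carry no brightness. The authors' deposited comparison table holds, per the file headers, a flag score, a fold change and a p-value for 22584 probe sets. Its fold equals the ratio of geometric group means within 1% for 100% of probe sets, and its p-value lies within 0.005 of that of a Welch test of the log ratios for 99.97%.

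Gene names were brought up to date with RefSeq (GRCm38.p6): 11499 probe sets by current symbol and 8667 by synonym, with 1125 kept as given, and 1112 without a name and 123 with several candidates unassigned. A gene is represented by its probe set with the highest flag score, then the plainest and lowest identifier. From the deposited ratios, log2 values without a pseudocount were computed, and limma 3.58.1 (R 4.3.3) was run on them (lmFit, eBayes, two-sided, Benjamini-Hochberg over all genes), a step tested on simulated data. Control probe sets (64) were left out. The main fit had no replicate block. Same-numbered arrays deviated together (r = 0.501, 0.397 and 0.244 across genes for numbers 1 to 3). Unmatched arrays of numbers 2 and 3 did so too (r = 0.159 and 0.209). Unmatched pairs with a replicate 1 array had r between -0.434 and -0.285. The contrast thus lay mainly in replicate 1, and these values do not settle whether numbers 2 and 3 are pairs. The numbers were taken as pairs in an alternative fit. That pairing comes from the data, since the labels state no shared day. Figures were drawn with matplotlib 3.10.9.

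Named were all measured members, the sorted genes, and from each pathway list the 2 largest differences and any gene without overlap. The members and lists were chosen with earlier results of these data known. Alternatives tried were the block, pseudocounts of 0.1 and 1, quantile normalization, a flag score of 6, the mean over probe sets, another variance model, the Welch test, leaving out arrays and, added after seeing the data, centring each array on its median. The number of arrays limits the precision.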

Additional observations from a re-analysis of the deposited data

How the results depend on the processing

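Under all 17 alternatives (15 for genes with a flag score below 6) 0 ephrin or Eph receptor genes and 0 other pathway genes among those tested passed the adjusted threshold, and Efnb2 (0.67 to 1.29 on the log2 scale, adjusted p 0.0864 to 1), Efnb1, Ephb2, Ephb3 and Epha2 kept their direction. With the replicate block 0 of all genes passed, and 1707 instead of 630 had an unadjusted p under 0.05. The block left Efnb2 at 1.13 (limma adjusted p = 0.168) and Epha1 at -1.33 (limma adjusted p = 0.164), and changed no call. With the block on the 8596 genes of flag score 6, 81 genes passed, among them Cxcr4 (2.47, adjusted p = 0.0221) and Kdr (2.62, adjusted p = 0.0417), and Efnb2 had an adjusted p of 0.0864. A pseudocount of 1 passed 3 genes, among them Cxcr4 (1.76, adjusted p = 0.0254). Leaving out each array in turn passed 0 to 1 genes, 1 of them without double-positive replicate 3. In these fits the median over the 9 genes lay between -0.49 and 0.47, on either side of 0, beside 0.09 with all arrays.

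The direction of 5 genes turned under some alternatives. Efna1 (-0.10; -0.65 to 0.22 with each array left out in turn) was at 0.10 without double-positive replicate 1, and at 0.12 and 0.22 without double-negative replicates 2 and 3. Efna5 (0.09; -0.30 to 0.50) was at -0.19 and -0.05 without double-positive replicates 2 and 3 and at -0.30 without double-negative replicate 1. Epha4 (0.15; -0.49 to 0.63) was at -0.10 as the mean over its probe sets, at -0.36 without double-positive replicate 3, at -0.49 without double-negative replicate 1 and at -0.00898 without both replicate 1 arrays. Epha7 (-0.23; -1.03 to 0.39) was at 0.33 without double-positive replicate 1 and at 0.39 without double-negative replicate 3. Efna2 (0.63; -0.27 to 1.27) was at -0.27 without double-negative replicate 1. The cause of these turns was not tested. Signal over background is unknown, since the ratios hold no brightness.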
